A study of Mus musculus with 12 samples.

Results

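The Schlafen genes form a cluster on mouse chromosome 11, and 7 of them were measured here in macrophages: Slfn1, Slfn2, Slfn3, Slfn4, Slfn5, Slfn8 and Slfn9. They were chosen as a list of these 7 symbols, found through the RefSeq transcript that each probe names, which gave 7 of 22911 gene symbols and 11 of 56605 probes. All 7 genes and all 11 probes passed the filter on dim probes, and the probe that stood for each gene was well above background on all 12 arrays. The macrophages came from the abdominal cavity of C57/BL6 mice and were cultured in DMEM with 10% FBS. There were 4 groups of 3 one-colour Agilent arrays: GPR15 KO cells with LPS at 100 ng/ml for 4 h (KO LPS), GPR15 KO cells with PBS for 4 h (KO PBS), wild-type cells with LPS (WT LPS) and wild-type cells with PBS (WT PBS). GPR15 is a G protein-coupled receptor of leukocytes, and LPS is a cell-wall component of Gram-negative bacteria that activates macrophages through Toll-like receptor signalling. The labels state neither how the knockout was made nor that replicates were separate mice, so the p-values may measure only technical spread.

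Schlafen proteins share a domain found in few other families, and the mouse genes fall into short forms (Slfn1, Slfn2), intermediate forms (Slfn3, Slfn4) and long forms with a helicase-like end (Slfn5, Slfn8, Slfn9). The family is known for restraining the growth of T cells, for acting on tRNA and translation, and, in its human long forms, for restricting viruses. Several members are induced by type I interferon, which macrophages secrete after LPS and which acts back on them through its receptor.

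Because the members moved together, the bases before their start sites are shown for Slfn4, which changed most, and for the 3 long forms. The sequences are from RefSeq, assembly GRCm38.p6, and each gives the 250 bases before the start, 5′ to 3′ on the gene's strand. Slfn4 lies at chr11:83174936-83175185, plus strand, Slfn5 at chr11:82951852-82952101, plus strand, Slfn8 at chr11:83020811-83021060, minus strand (the farther upstream of its start sites) and Slfn9 at chr11:82991831-82992080, minus strand. Capitals mark matches on either strand to GAAANNGAA, the core of an interferon-stimulated response element.
Slfn4: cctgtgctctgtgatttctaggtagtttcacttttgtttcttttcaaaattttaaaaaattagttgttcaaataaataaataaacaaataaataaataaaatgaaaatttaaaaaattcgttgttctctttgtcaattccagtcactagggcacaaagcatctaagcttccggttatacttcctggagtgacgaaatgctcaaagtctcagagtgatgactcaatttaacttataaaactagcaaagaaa
Slfn5: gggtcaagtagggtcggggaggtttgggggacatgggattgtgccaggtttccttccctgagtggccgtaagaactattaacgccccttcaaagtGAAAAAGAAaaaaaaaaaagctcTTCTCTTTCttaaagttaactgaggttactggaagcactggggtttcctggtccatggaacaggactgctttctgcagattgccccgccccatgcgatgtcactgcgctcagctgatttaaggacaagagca
Slfn8: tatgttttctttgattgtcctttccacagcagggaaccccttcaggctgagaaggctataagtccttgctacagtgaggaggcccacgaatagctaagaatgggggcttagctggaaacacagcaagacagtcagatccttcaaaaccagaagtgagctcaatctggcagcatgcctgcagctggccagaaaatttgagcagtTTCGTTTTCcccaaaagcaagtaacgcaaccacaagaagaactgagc
Slfn9: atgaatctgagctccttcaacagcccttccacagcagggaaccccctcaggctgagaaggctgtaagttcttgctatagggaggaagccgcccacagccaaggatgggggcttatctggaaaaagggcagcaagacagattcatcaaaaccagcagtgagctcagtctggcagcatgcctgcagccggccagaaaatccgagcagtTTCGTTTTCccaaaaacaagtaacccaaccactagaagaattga
Windows ran from 250 bases before to 50 bases after the start, and the 7 members had 8, as Slfn8 has 2 start sites. The element was found in 3 of 7 members, Slfn5, Slfn8 and Slfn9, or 4 of 8 windows. By window, it was found in 8.56% of 32851 mouse promoters. The 2 windows of Slfn8 overlapped and held the same match, so the 4 windows are not independent. In Slfn5 it occurred on both strands, with its first base at -155 and at -132 from the start. The Slfn8 match began at -47 from the start shown and at -135 from the nearer one, and the Slfn9 match began at -44. The same 9 letters, as a reverse-strand match, stood in Slfn8 and Slfn9. Windows of Slfn1, Slfn2, Slfn3 and Slfn4 did not hold these letters. A STAT-type element, TTCNNNGAA, was found in 0 of 7 members (0 of 8 windows) and in 8.3% of all promoters. An NF-kappaB site was found in 2 of 7 members, Slfn1 and Slfn9 (2 of 8 windows), and in 8.46% of all promoters. Matches to different motifs did not overlap in the members, and a match is a description of letters, not of binding.

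Before the results, some facts of the arrays bear on the comparisons. The 6 WT arrays shared slide 1 with 2 KO PBS arrays, replicates 1 and 2. The third KO PBS array was on slide 2 with the 3 KO LPS arrays. No KO LPS array was therefore on the slide of the WT LPS arrays, while both WT groups were on 1 slide. Gpr15 itself was well above background on 0 of 6 KO and 0 of 6 WT arrays, so the knockout label could not be checked by it. Ddx3y, Eif2s3y, Kdm5d and Uty, genes of the Y chromosome, were each above background on 6 of 6 KO arrays, against 0, 1, 0 and 0 of 6 WT arrays. Xist was above background on 0 of 6 KO and 6 of 6 WT arrays, so genotype and sex cannot be told apart. All 9 of 9 macrophage markers were above background on all 12 arrays.

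Slfn4 and Slfn3, the intermediate forms, lie next to each other and had the widest spans between groups. Values below are log2 signal less the array's 75th percentile, called the log2 level. Levels of different genes come from different probes and are not set against each other. Slfn4, a gene known to be raised in activated myeloid cells, stood at 3.27, 3.24 and 3.27 in KO LPS and 2.06, 1.85 and 2.27 in KO PBS, against 4.91, 5.05 and 4.72 in WT LPS and 1.97, 1.98 and 1.94 in WT PBS. The KO LPS arrays lay between the WT LPS arrays and both PBS groups without overlap, and the arrays of the PBS groups overlapped. Slfn3, studied mainly in the differentiation of rodent gut epithelium, stood at 0.60, 0.60 and 0.65 in KO LPS and -0.53, -0.84 and -0.28 in KO PBS, against 1.99, 2.01 and 1.69 in WT LPS and -0.93, -0.93 and -0.89 in WT PBS. No groups overlapped for Slfn3, although KO PBS replicate 2 came close to the WT PBS arrays.

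Slfn1 and Slfn2 are the short forms. Slfn1, the founding member, is known to slow the growth of thymocytes. It stood at -1.23, -1.35 and -1.25 in KO LPS and -1.43, -1.70 and -1.45 in KO PBS, against -0.13, 0.015 and -0.28 in WT LPS and -2.05, -2.12 and -1.94 in WT PBS. The KO LPS and KO PBS arrays of Slfn1 were close but did not overlap. The WT LPS arrays lay well above them, and the WT PBS arrays lay below them without overlap. Slfn2, whose mutation in mice leaves T cells unable to keep quiescence, stood at 4.69, 4.65 and 4.68 in KO LPS and 4.17, 4.14 and 4.04 in KO PBS, against 4.95, 4.91 and 4.90 in WT LPS and 3.89, 3.88 and 3.91 in WT PBS. All 4 groups of Slfn2 were apart, over the smallest span of the family.

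The long forms kept the same order of groups. Slfn5, a nuclear protein whose human counterpart restrains herpesvirus transcription, stood at 3.66, 3.66 and 3.64 in KO LPS and 3.54, 3.19 and 3.52 in KO PBS, against 4.77, 4.80 and 4.49 in WT LPS and 2.90, 2.81 and 2.86 in WT PBS. KO PBS replicates 1 and 3 were nearly at the KO LPS level of Slfn5, and replicate 2 was lower. Slfn8, a long form expressed in immune cells, stood at 4.07, 3.98 and 3.97 in KO LPS and 3.61, 3.35 and 3.61 in KO PBS, against 4.71, 4.83 and 4.54 in WT LPS and 3.02, 3.03 and 2.91 in WT PBS. Slfn9 stood at 3.75, 3.78 and 3.76 in KO LPS and 3.36, 3.18 and 3.24 in KO PBS, against 4.37, 4.40 and 4.27 in WT LPS and 2.98, 2.98 and 3.00 in WT PBS. The 4 groups of Slfn8 and of Slfn9 did not overlap.

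**Figure D1:**
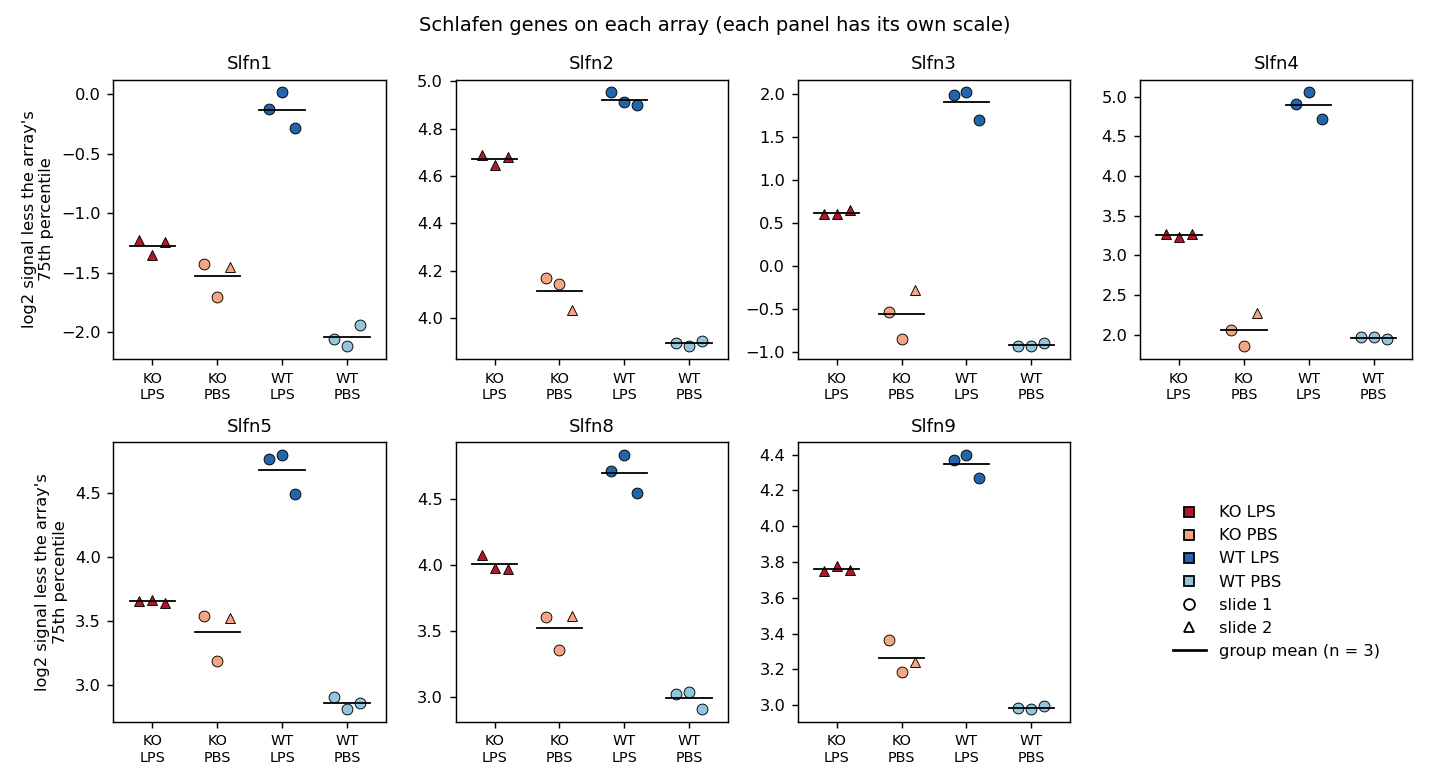
Log2 level (log2 signal less the array's 75th percentile, y axis) of each Schlafen gene on each array, by group (x axis), with circles for slide 1, triangles for slide 2 and lines for the mean of 3 arrays. In all 7 panels the group means run from WT LPS at the top through KO LPS and KO PBS to WT PBS, and only in Slfn4 do the KO PBS and WT PBS arrays overlap.

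The order of the group means was the same in 7 of 7 genes, with WT LPS highest, then KO LPS, KO PBS and WT PBS. Within groups, single arrays shifted most of the family together. WT LPS replicate 3 was the lowest of its group for 7 of 7 genes and WT LPS replicate 2 the highest for 6. KO PBS replicate 2 was the lowest of its group for 6 of 7, with Slfn2 as the exception. Deviations from the group means over the 12 arrays had Pearson r of 0.957 between Slfn3 and Slfn4 and 0.878 between Slfn5 and Slfn8. Slfn2 had r of -0.44 with Slfn4 and 0.047 with Slfn1 in the same measure. The spread of Slfn4 in the groups was 0.021 in KO LPS, 0.208 in KO PBS, 0.167 in WT LPS and 0.020 in WT PBS (SD, n = 3 each).

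What LPS did in KO cells was tested first. All 7 Schlafen genes rose, beside 35.1% of the 13283 genes tested that rose and 32% that fell (limma, Benjamini-Hochberg adjusted over all genes, threshold 0.05). In all 7 the 3 KO LPS arrays lay above the 3 KO PBS arrays, as in 37.5% of all genes. Slfn4 averaged 3.26 ± 0.021 in KO LPS and 2.06 ± 0.21 in KO PBS (SD, n = 3 each), a 2.30-fold rise with a log2 change of 1.20 ± 0.097 (SE, adjusted p = 5.86e-07). Slfn3 rose 2.25-fold, by 1.17 ± 0.12 (adjusted p = 4.85e-06). Slfn2 rose 1.47-fold, by 0.55 ± 0.043, Slfn9 1.41-fold, by 0.50 ± 0.052, and Slfn8 1.40-fold, by 0.48 ± 0.084 (adjusted p between 4.39e-07 and 0.000325). The rises of Slfn1 and Slfn5 were small, 0.25 ± 0.10 (adjusted p = 0.0408) and 0.24 ± 0.096 (adjusted p = 0.0428). Both calls were lost with slide as a term, at 0.18 (adjusted p = 0.303) and 0.13 (adjusted p = 0.434), and without KO PBS replicate 2, at 0.17 (adjusted p = 0.168) and 0.13 (adjusted p = 0.195). The median over the 7 genes was 0.50, against 0.04 over all genes. Within slide 2, where KO PBS replicate 3 was the only PBS array and its spread is assumed to be that of KO LPS, the changes of Slfn4 and Slfn3 were 0.99 and 0.89.

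In WT cells all 7 Schlafen genes rose as well, beside 33.7% of genes that rose and 31% that fell, and each log2 change was larger than its value in KO cells. The 3 WT LPS arrays of each gene lay above the 3 WT PBS arrays, as in 36.8% of all genes. Slfn4 averaged 4.90 ± 0.17 in WT LPS and 1.96 ± 0.020 in WT PBS (SD, n = 3 each), a 7.63-fold rise with a log2 change of 2.93 ± 0.097 (SE, adjusted p = 5.66e-10). Slfn3 rose 7.02-fold, by 2.81 ± 0.12 (adjusted p = 3.27e-09). By size of change, Slfn4 ranked 106 and Slfn3 139 among the 13283 genes. The next were Slfn1 at 1.91 ± 0.10, Slfn5 at 1.83 ± 0.096 and Slfn8 at 1.71 ± 0.084. Slfn9 rose by 1.36 ± 0.052 and Slfn2 by 1.03 ± 0.043, and the largest adjusted p of the 7 was 1.37e-08. The 95% intervals of the changes of Slfn4 and Slfn3 overlapped, and so did those of Slfn1, Slfn5 and Slfn8. The median over the 7 genes was 1.83, against 0.027 over all genes.

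Whether LPS changed the genes by different amounts in the 2 genotypes was tested directly, as the change in KO less the change in WT. All 7 Schlafen genes had a smaller rise in KO, beside 3.39% of genes with a lower change in KO and 0.926% with a higher one. Slfn4 rose by 1.20 in KO against 2.93 in WT, a difference of -1.73 ± 0.14 (adjusted p = 2.54e-05). Slfn1 (-1.65 ± 0.14), Slfn3 (-1.64 ± 0.17) and Slfn5 (-1.59 ± 0.14) were close to it, followed by Slfn8 (-1.23 ± 0.12), Slfn9 (-0.86 ± 0.073) and Slfn2 (-0.47 ± 0.061, adjusted p = 0.000669). On the log2 scale, the change in KO was 13.1% of that in WT for Slfn5 and 13.3% for Slfn1. It was 28.1% for Slfn8, 36.6% for Slfn9, 40.9% for Slfn4, 41.5% for Slfn3 and 54.0% for Slfn2. With slide as a term all 7 differences were still called, from -1.94 for Slfn4 to -0.39 for Slfn2. That term rests on KO PBS replicate 3 alone, the only array of slide 2 outside KO LPS. Without KO PBS replicate 3 the 7 were also called, while the number of genes called over the whole array was 2797 rather than 573. In that fit slide 2 held only KO LPS arrays, so slide and the KO LPS group cannot be told apart there.

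**Figure D2:**
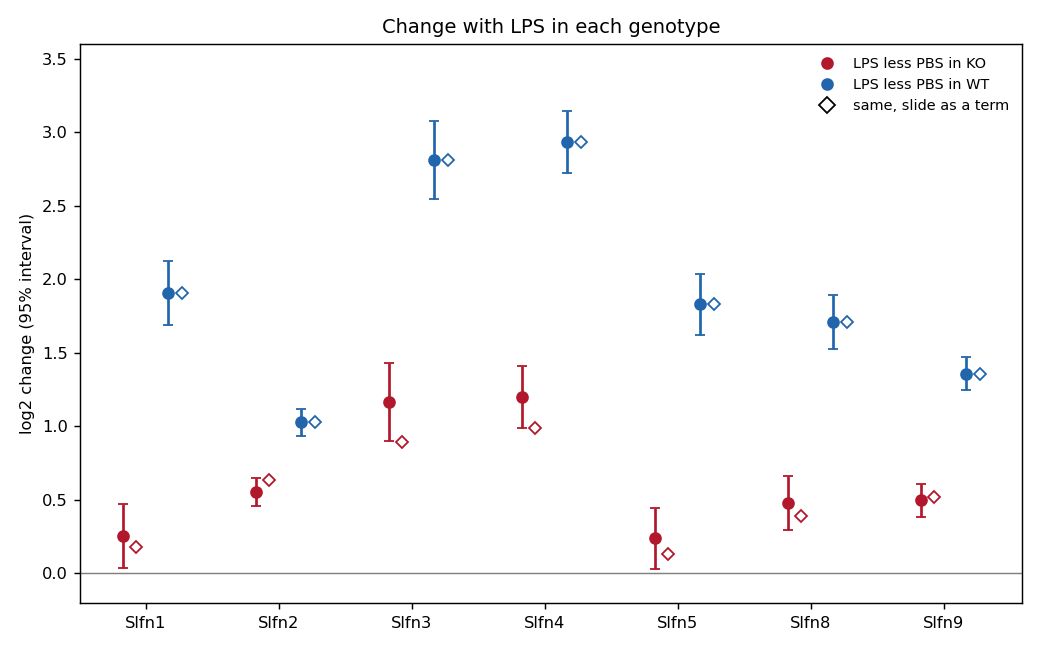
Log2 change with LPS (y axis, LPS less PBS) of each Schlafen gene (x axis) in KO and in WT cells, with circles for the fit, bars for its 95% interval and open diamonds for the change with slide as a term. In each gene the KO change is below the WT change, and the diamonds of Slfn1 and Slfn5 in KO are at 0.18 and 0.13.

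Before LPS, KO cells had somewhat more of most Schlafen RNAs. Of the 7 genes, 5 (Slfn1, Slfn2, Slfn5, Slfn8 and Slfn9) were higher in KO PBS than in WT PBS, beside 8.06% of genes that were higher and 6.05% that were lower. For 6 of 7 the KO PBS arrays lay above all WT PBS arrays, as in 16.7% of all genes. Slfn5 averaged 3.42 ± 0.20 in KO PBS and 2.86 ± 0.047 in WT PBS (SD, n = 3 each), a difference of 0.56 ± 0.096 (SE, adjusted p = 0.00305). Slfn8 differed by 0.54 ± 0.084 (adjusted p = 0.00177) and Slfn1 by 0.51 ± 0.10 (adjusted p = 0.00693). The differences of Slfn9 and Slfn2 were 0.28 ± 0.052 and 0.22 ± 0.043 (adjusted p = 0.00515 and 0.00642). Slfn3 did not pass the test at 0.36 ± 0.12 (adjusted p = 0.0681), but passed it without KO PBS replicate 2, at 0.51 (adjusted p = 0.0113), and without WT LPS replicate 3 (adjusted p = 0.0467). Slfn4 did not pass at 0.10, with a 95% interval from -0.12 to 0.31 (adjusted p = 0.541). On slide 1 alone, with KO PBS replicates 1 and 2, the 7 differences ran from -0.0079 for Slfn4 to 0.51 for Slfn5, and Slfn1 missed the threshold at 0.47 (adjusted p = 0.0528). With only the PBS groups in the fit, Slfn2 missed it at 0.22 (adjusted p = 0.0642). With the replicate number as a block in these groups, whose residuals do not pair, 0 of 7 genes were called in limma (6 at an unadjusted p under 0.05), and the adjusted p of the 5 genes ran from 0.0529 for Slfn5 to 0.155 for Slfn2.

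After LPS the order was the opposite, and 7 of 7 Schlafen genes were lower in KO LPS than in WT LPS. This stood beside 19.5% of genes that were lower and 20% that were higher, and the KO LPS arrays lay below all WT LPS arrays for 7 of 7, as in 30.1% of all genes. Slfn4 averaged 3.26 ± 0.021 in KO LPS and 4.90 ± 0.17 in WT LPS (SD, n = 3 each), which is 3.11-fold lower in KO with a difference of -1.64 ± 0.097 (SE, adjusted p = 1.86e-06). It ranked 11 of 13283 genes by p in this comparison. Slfn3 differed by -1.28 ± 0.12, Slfn1 by -1.14 ± 0.10 and Slfn5 by -1.03 ± 0.096 (adjusted p between 2.25e-05 and 3.64e-05). Slfn8 differed by -0.69 ± 0.084, Slfn9 by -0.58 ± 0.052 and Slfn2 by -0.25 ± 0.043 (adjusted p = 0.00146 for Slfn2). With slide as a term, which rests on KO PBS replicate 3 alone, 6 of 7 calls remained, from -1.95 for Slfn4 to -0.55 for Slfn9, and Slfn2 was lost at -0.13 (adjusted p = 0.216). Over all genes that term left 776 calls in place of 5242.

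**Figure D3:**
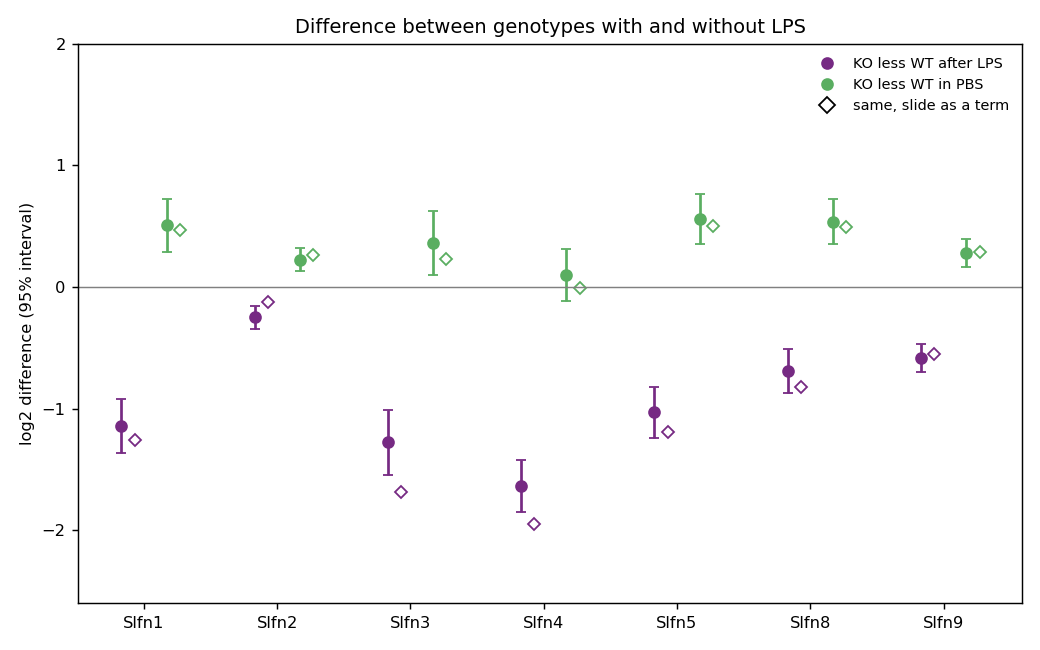
Log2 difference between KO and WT cells (y axis, KO less WT) for each Schlafen gene (x axis) after LPS and in PBS, with circles for the fit, bars for its 95% interval and open diamonds for the difference with slide as a term. All 7 circles after LPS are below 0 and all 7 in PBS are above it, with the Slfn4 diamond in PBS at -0.0079.

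Slfn5, Slfn8 and Slfn9 had more than 1 probe, and the others 1 each. With p-values adjusted over 28827 probes, 9 of the 11 rose with LPS in KO, beside 33.3% of all probes, and 10 rose in WT, beside 30.6%. The rise was smaller in KO for 10, beside 2.52% of all probes. In PBS 8 were higher in KO than in WT, beside 5.65%, and after LPS 9 were lower in KO than in WT, beside 17.6%. The second probe of Slfn5 followed the first, with 0.36 ± 0.14 for LPS in KO and 1.97 ± 0.14 in WT. The third, a dim one, was not well above background on the 3 WT PBS arrays, and the fold against such arrays is given as a lower bound, taken from the lowest signal well above background there. By that bound it was at least 2.08-fold higher in KO PBS than in WT PBS (adjusted p = 0.00433) and at least 4.00-fold higher in WT LPS than in WT PBS (adjusted p = 3.32e-06). This probe did not pass the test for LPS in KO, at 0.48 ± 0.21 (adjusted p = 0.0633), nor for KO LPS against WT LPS, at -0.46 ± 0.21 (adjusted p = 0.108). The second Slfn8 probe rose by 0.56 ± 0.11 in KO and 1.54 ± 0.11 in WT.

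The second probe of Slfn9 did not follow the first. It stood at 2.05, 2.18 and 2.14 in KO LPS and 1.57, 1.54 and 2.35 in KO PBS, against 1.85, 1.92 and 1.71 in WT LPS and 1.70, 1.66 and 1.52 in WT PBS. All 4 arrays of slide 2 were above all 8 arrays of slide 1. It passed the test in 0 of 5 comparisons in limma, where 0 of 5 unadjusted p-values were under 0.05, and its change with LPS was 0.30 ± 0.17 in KO and 0.20 ± 0.17 in WT. The results for Slfn9 therefore rest on its first probe. With the mean of both probes, the difference in its LPS change missed the threshold at -0.38 (adjusted p = 0.14), as did its difference between KO LPS and WT LPS at -0.14 (adjusted p = 0.233) and between KO PBS and WT PBS at 0.24 (adjusted p = 0.11). Members of the family are alike in sequence, and the part of cross-hybridisation between their probes was not tested.

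**Figure D4:**
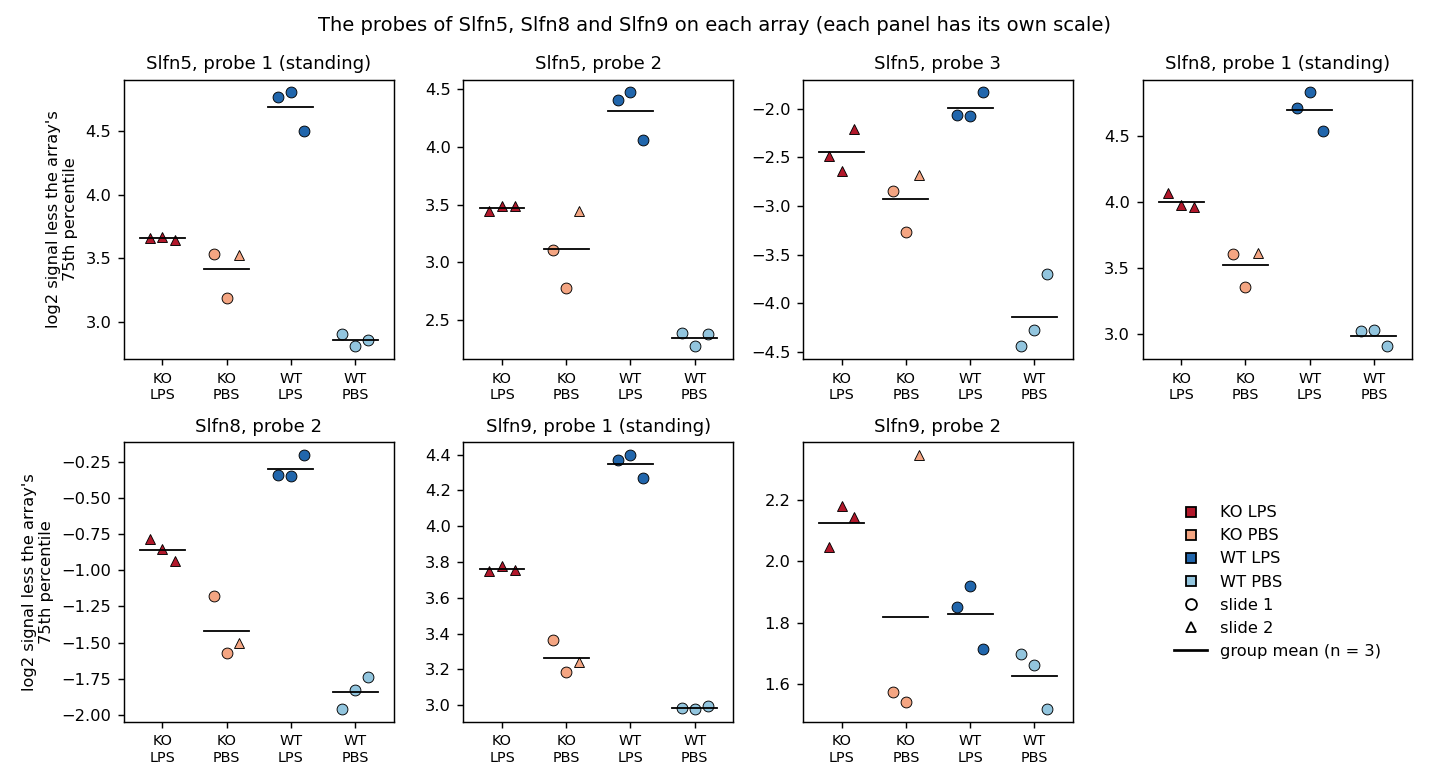
Log2 level (y axis) of each probe of Slfn5, Slfn8 and Slfn9 on each array, by group (x axis), with circles for slide 1, triangles for slide 2 and lines for the mean of 3 arrays. The panels marked as standing are the probes used for the gene. In the second Slfn9 probe the 4 triangles, from 2.05 to 2.35, are above all circles, whereas the other probes have WT LPS at the top.

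Among the other Schlafen genes on the array, Slfn10-ps, a pseudogene between Slfn8 and Slfn2, had 2 probes that differed in size of change. By the brighter it stood at 2.60, 2.59 and 2.49 in KO LPS and 2.21, 2.10 and 2.11 in KO PBS, against 3.19, 3.40 and 3.18 in WT LPS and 1.92, 1.84 and 1.86 in WT PBS. Its change was 0.42 ± 0.063 in KO and 1.38 ± 0.063 in WT, a difference of -0.96 ± 0.089 (adjusted p = 5.37e-05). By the second probe it rose by 0.27 ± 0.099 in KO and 0.77 ± 0.099 in WT, and the difference of -0.51 ± 0.14 did not pass the test (adjusted p = 0.0867 over all probes). Nor did that probe pass for KO against WT in PBS (0.29, adjusted p = 0.0869) or after LPS (-0.22, adjusted p = 0.106). Slfn14, known from the translation machinery of blood platelets and reticulocytes, and Slfnl1 did not pass the filter on dim probes.

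Along chromosome 11 the cluster runs in the order Slfn5, Slfn9, Slfn8, Slfn10-ps, Slfn2, Slfn1, Slfn4, Slfn3 and Slfn14. Of 14 listed genes beside it, 11 were tested. With LPS, 8 of these rose and 1 fell in KO, and 7 rose and 1 fell in WT, with medians of 0.49 and 0.58. Over all genes 35.1% rose in KO and 33.7% in WT. The difference between the genotypes in LPS change passed the test for 0 of 11 in limma, with 0 of 11 at an unadjusted p under 0.05 and a median of -0.043. Over all genes 3.39% were lower and 0.926% higher in that test. Nle1, a ribosome assembly factor close to Slfn5, rose by 1.34 ± 0.078 in KO and 1.51 ± 0.078 in WT (difference adjusted p = 0.4). Lig3, a DNA ligase gene farther along on that side, rose by 0.42 ± 0.071 in KO and 0.58 ± 0.071 in WT. Rffl and Taf15 also rose in both genotypes, by 0.96 and 0.74 in KO and by 0.85 and 0.73 in WT, and Rad51d fell in both, by 0.58 in KO and by 0.54 in WT. Cct6b, a dim gene not well above background in either PBS group, had the largest difference in LPS change of the 11, at -0.78 ± 0.44 (adjusted p = 0.331).

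**Figure D5:**
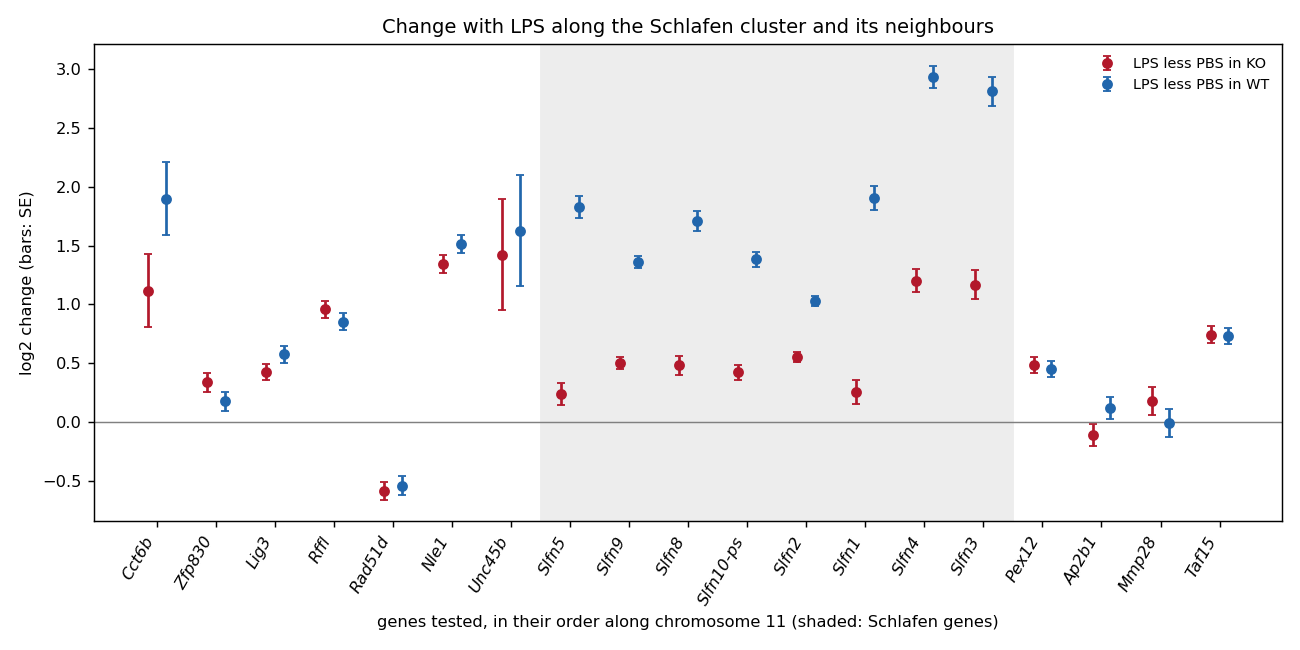
Log2 change with LPS (y axis, LPS less PBS, bars are SE) in KO and WT cells for the genes tested, in their order along chromosome 11 (x axis, not to scale), with the Schlafen genes shaded. The 8 shaded genes have separate KO and WT values, while those of Nle1, Rffl, Rad51d and Taf15 lie close together. The dim neighbour Cct6b is at 1.12 in KO and 1.90 in WT, with an SE of 0.31 for each.

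The interferon pathway, through which Schlafen genes are known to be induced, was described from a list of 21 genes, all tested. With LPS in KO 12 rose and 1 fell, and in WT 15 rose and 1 fell. Over all genes 35.1% rose and 32% fell in KO, and 33.7% rose and 31% fell in WT. Irf7, the factor that amplifies interferon transcription, rose by 0.70 ± 0.081 in KO and by 2.22 ± 0.081 in WT (difference -1.52 ± 0.11, adjusted p = 2.43e-05). Usp18, which shuts off the receptor, rose by 0.74 ± 0.11 in KO and by 2.84 ± 0.11 in WT (difference -2.10 ± 0.16). Stat2, which carries the interferon signal to the nucleus, had a smaller rise in KO (difference -1.09 ± 0.11). In all, 6 of the 21 had a smaller change in KO and 1 a larger one, beside 3.39% of all genes with a lower change and 0.926% with a higher one. The gene with a larger change was Ifna4, an interferon itself, which was not well above background in either PBS group and was at least 6.21-fold higher in KO LPS than in KO PBS and at least 2.54-fold higher in WT LPS than in WT PBS. After LPS, Ifna4 was 2.27-fold higher in KO than in WT (adjusted p = 0.000927). Ifnb1 was above background on 3 of 3 KO LPS arrays and 1 of 3 WT LPS arrays and passed none of the tests. It is named after its values were seen. In PBS, 8 of the 21 were higher in KO and 3 lower, and after LPS 1 was higher and 10 lower. Over all genes 8.06% were higher and 6.05% lower in PBS, and 20% were higher and 19.5% lower after LPS.

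A list of 20 interferon-stimulated genes served as a yardstick, of which 18 were tested. With LPS, 14 of 18 rose in KO, with a median of 0.67, and 18 of 18 rose in WT, with a median of 2.58, beside 35.1% and 33.7% of all genes. In PBS 18 of 18 were higher in KO (median 0.77), after LPS 18 of 18 were lower in KO (median -0.89), and the change with LPS was smaller in KO for 18 of 18 (median -1.68). Over all genes these shares were 8.06%, 19.5% and 3.39%. With slide as a term 15 of 18 were still lower in KO after LPS, beside 431 of 13283 genes. Isg20, an exonuclease, rose by 1.25 in KO and by 2.92 in WT, and Cxcl10, a chemokine for T cells, by 2.70 in KO and by 4.72 in WT. The lists were chosen with results of these data known, so these counts describe and do not test them.

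For each member the genes most alike over the 12 arrays were sought by Pearson r. The other members were left out, and names starting with Gm and a digit or LOC, or ending in Rik, were passed over. The arrays fall into 4 groups and 2 slides, so r mainly compares group means. Slfn9 was most like Irf7 (0.997), Ifi35 (0.997) and Isg20 (0.996), and Slfn8 most like Ifi204 (0.997), Oas2 (0.996) and Dhx58 (0.995). For Slfn5 these were Phf11b (0.992), Oas3 (0.992) and Ifi44 (0.991), and for Slfn1 Bst2, Daxx and Dtx3l (0.991 to 0.992). Slfn3 was most like Isg20 (0.994), Trim30a (0.994) and Helz2 (0.994), and Slfn4 most like Tor1aip2 (0.991), Trim30a (0.989) and Coro2a (0.988). Slfn2 had other neighbours, Trim26, Saa2 and Cox18 (0.992 each). Among the members, r was lowest between Slfn1 and Slfn2 (0.903) and highest between Slfn1 and Slfn5 (0.995).

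Slfn1 and Slfn2 are known from lymphocytes, and markers of other cells were present beside those of macrophages. Of 8 T-cell markers 7 were above background on all 12 arrays, and Cd8a on 3. Their summed level, on a linear scale with the array's 75th percentile as 1, was 10.6 to 11.9 in KO LPS and 18.8 to 20 in KO PBS, against 11.4 to 12.5 in WT LPS and 20.5 to 26.3 in WT PBS. All 7 of 7 B-cell markers were above background on all 12 arrays, with sums of 54.7 to 55.8 in KO LPS and 110.4 to 116.4 in KO PBS, against 68.9 to 81.3 in WT LPS and 135.2 to 169.4 in WT PBS. Both sums were lower with LPS, while all 7 Schlafen genes rose with it. Of 5 NK-cell markers 3 were above background on all 12 arrays and Ncr1 and Klrb1c on 0, with sums of 1.35 to 1.73 in KO LPS and 0.888 to 1 in KO PBS, against 1.84 to 4.18 in WT LPS and 0.938 to 1.35 in WT PBS. The higher NK-cell sums with LPS followed Gzma, whose mean log2 level was 0.056 against -1.75 in KO and 1.37 against -0.90 in WT. Klrd1 was instead lower with LPS, at -2.14 against -1.31 in KO and -2.49 against -1.46 in WT. Nkg7 with LPS was at -2.45 against -2.32 in KO and -2.08 against -2.30 in WT. Both monocyte markers, Ly6c2 and Ccr2, were above background on all 12 arrays, with sums of 25.0 to 27.8 in KO LPS and 30.3 to 33.4 in KO PBS, against 46.6 to 50.1 in WT LPS and 33.7 to 39 in WT PBS. Their sum was thus higher with LPS in WT and lower with LPS in KO, without overlap. The sum mostly followed Ly6c2, with mean log2 levels of 4.70 in KO LPS and 4.99 in KO PBS. In WT these were 5.58 with LPS and 5.16 with PBS. Ccr2 was instead lower with LPS in both genotypes, at -2.51 against -1.12 in KO and -2.76 against -1.65 in WT. All 5 of 5 mast-cell markers were above background on all 12 arrays, with sums of 74.5 to 76.4 in KO LPS and 58.5 to 67.0 in KO PBS, against 85.6 to 105.6 in WT LPS and 67.1 to 89.4 in WT PBS. Of 7 neutrophil markers on the array 4 were above background on all 12 arrays and Ngp on 0, with sums of 8.0 to 10.1 in KO LPS and 6.10 to 9.21 in KO PBS, against 4.19 to 10.3 in WT LPS and 3.28 to 4.15 in WT PBS. The mast-cell sums went highest in WT LPS, where the Schlafen genes were highest, but overlapped those of WT PBS, and the mean of Kit was lowest in WT LPS. The neutrophil sums were lowest in WT PBS, where the mean of each Schlafen gene was lowest. Means of S100a8, S100a9 and Camp were lowest there too. Those of Elane, Mpo and Retnlg were instead lowest in WT LPS, though Mpo and Retnlg were not above background on all arrays. Fewer cells of a type and less RNA per cell cannot be told apart in such samples, and the part of these cells in the Schlafen results was not tested.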

How the data were processed

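The deposited files hold signal intensity per spot with background and quality values, per the file headers, as written by Agilent's Feature Extraction software (11.5.1.1, per the submitters' processing notes). Per the labels, total RNA was labelled with Cy3. Groups and replicate numbers came from the sample titles. From log2 processed signals each array's 75th percentile over 59305 non-control spots was subtracted (469.6 to 574.1 before taking logs). Between 48.8% and 57.1% of spots were well above background, and 0 were saturated. Spots of a probe were averaged without outlier spots. Probes were named by their RefSeq accession through a gene table of GRCm38.p6 (32994 of 56605 matched). Kept probes were well above background throughout at least 1 group of 3 arrays, and the brightest kept probe stood for a gene (28827 probes, 13283 genes).

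One model with 4 group means was fitted over all 12 arrays (limma 3.58.1, R 4.3.3, eBayes with trend). Two-sided p-values were adjusted by Benjamini-Hochberg over all genes, with a threshold of 0.05, and the steps were tested on simulated data. The number of arrays limits the precision. The alternatives were normexp on the median signal with an offset of 50 (used because no mean-signal column was in the files used), quantile and median scaling, other filters, probes and outlier rules, slide as a fixed term or random block, single slides, only the groups compared, no trend, a replicate block, and each array left out. Slide 2 alone, the dimmest probe and the block within the groups compared were added after seeing the data.

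Residuals of equal replicate numbers correlated at 0.105, 0.371 and 0.481 for LPS in WT, which the rule used here takes as paired, though replicate 1 did not match its own number best. In the other comparisons at least 1 correlation was under 0.1. The numbers come from the titles.

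The members and gene lists were chosen with earlier results of these data known. Named are all members with all probes, other Schlafen genes, the 3 genes most alike, and from each list up to 4 called genes with the smallest p, of which 1 is not reported here.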

Additional observations from a re-analysis of the deposited data

Results flagged for a closer look

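The change with LPS differed between KO and WT cells for all 7 Schlafen genes by a test of the difference itself (limma, adjusted over 13283 genes). The log2 change in KO less that in WT was -1.73 for Slfn4, -1.65 for Slfn1, -1.64 for Slfn3, -1.59 for Slfn5, -1.23 for Slfn8, -0.86 for Slfn9 and -0.47 for Slfn2, with adjusted p between 2.54e-05 and 0.000669. With slide as a term the values were -1.94, -1.73, -1.92, -1.70, -1.32, -0.84 and -0.39 in the same order of genes. That term rests on KO PBS replicate 3 alone.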

How the results depend on the processing

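Over 28 alternatives, 869 of the single-gene values kept their direction and their side of the threshold, 40 fell below it, 3 passed it and 5 changed sign. All 7 Schlafen genes were called for LPS in WT under every alternative that gives it except the dimmest probe, which lost Slfn9. The difference in LPS change was called for 7 genes under all alternatives that give it but the mean of probes and the dimmest probe, with 6 each. With the dimmest probe Slfn9 changed sign, to 0.30 for KO against WT after LPS and 0.10 for the difference in LPS change. For LPS in KO, the call of Slfn1 held in 7 of 12 fits that left out 1 array. It was lost without WT PBS 1, WT LPS 1, KO PBS 2, KO LPS 1 or KO LPS 3 (adjusted p from 0.0534 to 0.168). That of Slfn5 held in 5 of 12 and was lost without WT PBS 1 or 2, WT LPS 1, KO PBS 2 or any KO LPS array (adjusted p from 0.0502 to 0.195). Slfn4 in PBS, never called, was -0.0079 with slide as a term, on slide 1 alone and without KO PBS replicate 3, and ranged from -0.0079 to 0.20 with 1 array left out. With the replicate block only in the groups compared, 0 Schlafen genes were called in limma for KO against WT in PBS (6 at an unadjusted p under 0.05). There 216 genes in all passed, against 799 in the same groups without the block and 1874 in the main fit of all groups. These groups are not paired by the residuals. In WT the block changed no call, with 7 of 7 genes, and in the fit of all groups the replicate block lost only Slfn1 for LPS in KO (0.25, adjusted p = 0.0535). The cause was not tested.

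Counts over all genes moved more. KO against WT after LPS gave 5242 calls, 776 with slide as a term and 1495 with slide as a random block (correlation 0.387). KO against WT in PBS gave 1087 on slide 1 alone, 799 with only the groups compared, and 917 and 1043 without WT PBS replicates 1 and 2. The difference in LPS change gave 573, and 360, 960, 361, 2797 and 365 without WT PBS replicates 1 and 3, KO PBS replicates 1 and 3, and KO LPS replicate 1.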
